A study of Mus musculus with 44 samples.

Results

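Mammalian oocytes carry transcripts of a set of NLRP genes that have expanded in rodents, and the 10 members Nlrp2, Nlrp4a, Nlrp4b, Nlrp4c, Nlrp4e, Nlrp4f, Nlrp9a, Nlrp9b, Nlrp9c and Nlrp14 were followed here in single mouse two-cell embryos. The members were chosen by gene name as 10 of the 35269 genes quantified, and each of the 10 names matched 1 row. NLRP proteins combine a pyrin domain, a NACHT nucleotide-binding domain and leucine-rich repeats. The family is best known for inflammasome sensors of the innate immune system, but many mouse members are transcribed mainly in germ cells. In the growing oocyte these messages are stored, and after fertilisation most stored messages are degraded while the embryonic genome is switched on at the two-cell stage.

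The study asked whether Dppa2 and Dppa4, a pair of small chromatin proteins linked to genome activation, are needed from the mother. In all groups but the controls, the mother was a conditional knockout (cKO) female on a C57Bl/6 background in which Zp3-Cre, active in growing oocytes, removed the stretch from Dppa4 exon 2 to Dppa2 exon 7. The 44 embryos formed 4 groups. There were 14 WT embryos (Dppa2/4+/+) from control females and wild-type males, 15 HET1 embryos (Dppa2/4+/-) from cKO females and wild-type males, and 5 HET2 (Dppa2/4+/-) and 10 HOM (Dppa2/4-/-) embryos from cKO females and heterozygous males. HET1, HET2 and HOM embryos therefore all lack the maternal supply, and HOM embryos also lack a functional allele from the father. The embryos came from natural matings in 6 litters, numbered mating 1 and mating 2 within each of the 3 crosses. WT embryos came from litters of 10 and 4, HET1 embryos from litters of 7 and 8, and HET2 and HOM embryos shared 2 litters, with 4 HET2 and 3 HOM embryos in mating 1 and 1 HET2 and 7 HOM embryos in mating 2. Because the authors told HET2 from HOM embryos by reads of the deleted genes themselves, Dppa2 and Dppa4 do not check those labels independently.

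Each embryo was 1 library of oligo-dT primed cDNA, and levels are given as RPM, mapped reads scaled to a common library size. Total reads per embryo ranged from 247667 to 3163026, with medians of 1770010 in WT, 528166 in HET1, 1108889 in HET2 and 803369 in HOM embryos. A count of 0 allows up to 3 reads, which is 0.948 RPM in the deepest and 12.1 RPM in the shallowest embryo, and covers counting error only. Dppa2 had between 184 and 2144 reads in WT embryos, 11 to 489 in HET1, 19 to 814 in HET2 and 0 to 7 in HOM embryos. All 7 two-cell markers and all 5 oocyte markers examined had reads in WT embryos. Of 10 cumulus and granulosa cell markers, Amh, Fshr, Foxl2, Inhba and Ptgs2 had 0 reads in the 14 WT embryos. Amhr2 had reads in all 14 (median 29.3 RPM), Cyp19a1 in 8 (up to 17.7 RPM), Tnfaip6 in 3, Has2 in 2 and Ptx3 in 1.

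Of the members, 9 lie on mouse chromosome 7 (GRCm38) and Nlrp4f lies on chromosome 13. Nlrp9c (26322473 to 26403700, reverse strand), Nlrp4a (26435113 to 26476142) and Nlrp9a (26535023 to 26575615) follow one another on chromosome 7. Nlrp2 (5298547 to 5351035, reverse strand) and Nlrp4c (6045161 to 6105150) are also close, whereas Nlrp14 (107166990 to 107198102) is far from the rest. Nlrp4b spans 10687789 to 10730168, Nlrp9b 19991465 to 20073306 and Nlrp4e 23301192 to 23362277 on the same chromosome, and Nlrp4f spans 65177111 to 65205977 on chromosome 13, reverse strand. All 10 are annotated as protein-coding, with between 9 and 12 exons in the longest transcript. Nlrp2 overlaps Gm5065 on the opposite strand and Nlrp4b overlaps Gm45379 on its own strand, and since the counting ignored strand, reads shared with these genes cannot be told apart.

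The members are close copies within their subgroups. The coding sequences of Nlrp4c and Nlrp4e were identical at 93.9% of 2934 aligned bases and those of Nlrp9a and Nlrp9c at 87.4% of 3009. Whether a read of 75 bases could be assigned to 1 gene was asked by comparing every 75-base stretch of each member's transcripts with the transcripts of all other annotated genes. Nlrp4e shared 20.1% of its stretches, mostly with Gm8486 (18.6%), Gm16443 (18.6%) and related gene models, and 2.32% with Nlrp4c. The shares were 4.25% for Nlrp9b and 3.08% for Nlrp4c, at most 1.98% for Nlrp2, Nlrp4a, Nlrp4f, Nlrp9a and Nlrp9c, and 0 for Nlrp4b and Nlrp14. Because the authors kept only reads with a mapping quality of at least 20, reads from shared stretches may be missing or split, and Nlrp4e levels are the least certain in this respect.

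The promoters were alike within a subgroup for some members only. RefSeq promoter sequences of GRCm38.p6 were matched for 9 of the 10 members, with 2 start sites for Nlrp4a and for Nlrp4b, which gave 11 windows of 250 bases before the start. The windows of Nlrp9a and Nlrp9c are shown because a stretch of them is near-identical. The letters CCAAT and CANNTG (the E-box, the kind of site bound by the oocyte factor FIGLA with its partner) are in capitals on either strand, written 5′ to 3′ along the gene.

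Nlrp9a, chr7:26534773-26535022, forward strand: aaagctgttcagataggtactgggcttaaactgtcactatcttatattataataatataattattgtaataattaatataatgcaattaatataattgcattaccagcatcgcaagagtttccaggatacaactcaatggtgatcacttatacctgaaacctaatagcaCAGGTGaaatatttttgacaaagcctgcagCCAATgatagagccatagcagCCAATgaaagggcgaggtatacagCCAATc
Nlrp9c, chr7:26403701-26403950, reverse strand: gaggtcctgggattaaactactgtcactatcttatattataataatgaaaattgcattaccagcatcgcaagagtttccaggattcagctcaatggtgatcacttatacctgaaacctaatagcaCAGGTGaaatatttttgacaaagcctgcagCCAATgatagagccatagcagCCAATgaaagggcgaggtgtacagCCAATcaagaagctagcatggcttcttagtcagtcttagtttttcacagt

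Aligned locally, the windows of Nlrp9a and Nlrp9c were identical at 98.1% of 157 bases, with an unbroken run of 106 identical bases. Each held CAGGTG once and CCAAT 3 times. The windows of Nlrp4a, Nlrp4b and Nlrp4c are shown because they share a longer word, CCAATCACATG, in which a CCAAT runs into an E-box, although their levels did not follow one another.

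Nlrp4a, chr7:26435364-26435613, forward strand: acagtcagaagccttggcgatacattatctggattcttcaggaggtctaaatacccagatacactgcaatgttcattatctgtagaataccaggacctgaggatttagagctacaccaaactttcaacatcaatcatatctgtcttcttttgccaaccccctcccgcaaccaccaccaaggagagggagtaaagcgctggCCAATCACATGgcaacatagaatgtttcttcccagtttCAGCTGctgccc
Nlrp4b, chr7:10687543-10687792, forward strand: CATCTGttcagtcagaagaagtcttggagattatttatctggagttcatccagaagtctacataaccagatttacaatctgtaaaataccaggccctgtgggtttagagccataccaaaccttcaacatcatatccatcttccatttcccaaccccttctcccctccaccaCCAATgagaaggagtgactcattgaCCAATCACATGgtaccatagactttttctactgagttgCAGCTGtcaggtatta
Nlrp4c, chr7:6044911-6045160, forward strand: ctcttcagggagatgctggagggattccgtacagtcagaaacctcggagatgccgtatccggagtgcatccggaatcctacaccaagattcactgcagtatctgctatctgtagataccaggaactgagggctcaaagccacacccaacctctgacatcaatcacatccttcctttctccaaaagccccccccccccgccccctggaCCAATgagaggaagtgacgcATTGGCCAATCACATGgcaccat

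Pairs of these 3 windows were identical at 76.1% to 79.7% of 207 to 222 aligned bases. Other pairs within the subgroups were less alike. The longest identical run was 7 bases for Nlrp4c with Nlrp4e and 7 bases for Nlrp9b with Nlrp9c. The word CCAATCACATG, searched after its letters had been seen, occurred in 4 of the 11 member windows and in 11 (0.0335%) of 32851 promoters of the table. Those promoters include the member windows. Since the word was picked from the member windows, these counts do not test for an enrichment. The windows of Nlrp4b overlap, so its 2 matches are 1 site. CCAAT alone was found in 8 of the 11 windows, against 33.8% of all promoters, and CANNTG in 9 of the 11, against 66.2%. Counted by gene, each of these 2 motifs was found in 7 of the 9 members with a window. CACGTG was found in 0 of the 11 windows, against 6.02% of all promoters. These matches describe the letters of the windows and were not tested as binding sites.

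The level of the members spanned more than an order of magnitude. Per kb of exon, the median over 44 embryos was 56.0 RPM for Nlrp9c, 53.7 for Nlrp14, 42.4 for Nlrp4f, 13.9 for Nlrp9a, 8.10 for Nlrp4a, 5.60 for Nlrp4e, 5.28 for Nlrp9b, 4.70 for Nlrp4b, 1.91 for Nlrp2 and 1.71 for Nlrp4c. Nlrp14, a maternal-effect gene, and Nlrp9c and Nlrp4f were thus the abundant members, and Nlrp2, also a maternal-effect gene, and Nlrp4c the scarce ones. The clearest step in this order lay between Nlrp4f and Nlrp9a, where the per-kb level of Nlrp4f was higher in 42 of 44 embryos, by 1.92 ± 1.32 on the log2 scale (mean ± SD, n = 44). Every other pair of neighbours in the order differed by less than 1 SD of the within-embryo difference. Nlrp9b and Nlrp4b, for example, were each higher in 22 of 44 embryos, and Nlrp9c exceeded Nlrp14 in 33 of 44. With the length of the longest transcript in place of all exons, Nlrp9c stood at 103 RPM per kb and Nlrp4b stood above Nlrp4e and Nlrp9b.

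**Figure D1:**
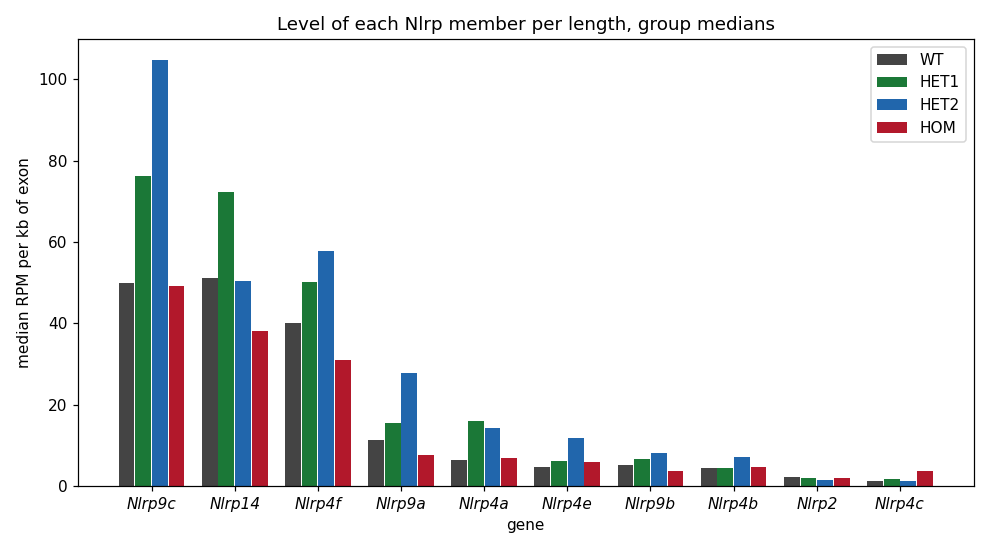
Median level of each Nlrp member in RPM per kb of exon (vertical axis) in the WT, HET1, HET2 and HOM groups (bars), with members ordered by the median over all 44 embryos. Nlrp9c, Nlrp14 and Nlrp4f are the 3 highest in each group.

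All embryos had reads of Nlrp4a, Nlrp4f, Nlrp9c and Nlrp14. Reads of Nlrp2 and of Nlrp4c were missing in 7 of 44 embryos each, those of Nlrp9a and of Nlrp9b in 4 each, those of Nlrp4e in 2 and those of Nlrp4b in 1. The scarce members Nlrp2 and Nlrp4c had medians of 9 and 7 reads per embryo, so an absent read in a shallow embryo does not show absent RNA. Nlrp9c alone held a median of 42.2% of the family's reads in WT mating 1 and between 31.4% and 41.9% in the other litters.

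Group differences were asked first. The limma model of the 4 groups used log2 RPM with all values below 1.86 raised to 1.86, so that depth did not set the level of undetected genes, and adjusted p-values over 16412 genes by Benjamini-Hochberg. All 10 members passed the filter on low values, a mean of at least 0 on the log2 scale. A gene was called at an adjusted p under 0.05. Since the spread is between embryos of only 2 litters a group, and group differences from WT cannot be told apart from differences between litters, the p-values describe differences between these embryos.

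Between HET1 and WT embryos, 0 of 10 members were called by limma, against 4.54% of all genes tested (745 of 16412, with 3025 under an unadjusted p of 0.05). All 10 differences were nevertheless positive, with a median of 0.52 on the log2 scale beside 0.05 for all genes tested. Oocyte genes outside the 10, listed further below, were shifted too. The median was 1.13 for 16 oocyte transcripts, 15 of them positive. For the 6 genes of the subcortical maternal complex, all 6 positive, it was 1.03. Among the members, the difference came closest to the threshold for Nlrp4a. Its level ranged from 7.84 to 67.3 RPM (median 30.6) in WT and from 7.36 to 221 RPM (median 77.6) in HET1 embryos, so that the groups overlapped over much of their range. The log2 difference was 1.27 (SE 0.43, adjusted p = 0.080), or 2.41-fold. Nlrp4a was called on the deposited values without the common floor (adjusted p = 0.023) and among genes with a mean of at least 3 (adjusted p = 0.033), where 24.7% and 14.2% of all genes tested were called in either direction. Nlrp9a differed by 1.02 (SE 0.59, adjusted p = 0.36), Nlrp9c by 0.53 (SE 0.32, adjusted p = 0.39), and Nlrp14 by 0.51 (SE 0.28, adjusted p = 0.33).

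The HET1 values depended on the litter. With only the 8 HET1 embryos of mating 2 kept, limma called 5 members higher than in WT, with 7.10% of all genes called higher. These were Nlrp4a (difference 2.21, adjusted p = 0.00067), Nlrp4e (2.17, adjusted p = 0.0034), Nlrp9a (2.41, adjusted p = 0.0079), Nlrp9c (1.19, adjusted p = 0.023) and Nlrp14 (1.01, adjusted p = 0.025). With only the 7 embryos of mating 1 kept, 0 members were called, against 0.0366% of all genes, and 8 of the 10 differences were negative, among them Nlrp4e at -1.03 (adjusted p = 0.36) and Nlrp9a at -0.56 (adjusted p = 0.72).

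Between HET2 and WT embryos, 0 of 10 members were called by limma, against 0.0305% of all genes (5 of 16412, with 1399 under an unadjusted p of 0.05). All 10 differences were positive, with a median of 0.76 beside 0.00 for all genes. Of the 5 HET2 embryos, 4 came from mating 1. The median was 0.74 for the 16 oocyte transcripts, 14 of them positive, and 0.60 for the 6 genes of the subcortical maternal complex, all 6 positive. The HET1, HET2 and HOM comparisons with WT share the 14 WT embryos, so their signs are not independent of one another. Among the members, Nlrp9a had the greatest difference between HET2 and WT embryos. Its level was 171, 57.7, 73.0 and 123 RPM in the 4 HET2 embryos of mating 1 and 96.8 RPM in the embryo of mating 2, against 0 to 102 RPM (median 39.6) in WT. All 5 HET2 embryos lay above the WT median, and the highest WT embryos lay among them. The log2 difference was 1.86 (SE 0.83, adjusted p = 0.53), with an interval from 0.18 to 3.54. For Nlrp4e the difference was 1.51 (SE 0.77, adjusted p = 0.59) and for Nlrp4a 1.19 (SE 0.60, adjusted p = 0.59).

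Nlrp4a in HET2 embryos stood at 134, 101, 68.7 and 55.3 RPM in mating 1 and at 9.85 RPM in mating 2. Nlrp9c stood at 856, 703, 621 and 362 RPM in mating 1 and at 203 RPM in mating 2. The single HET2 embryo of mating 2 was the lowest of the 5 for both genes. For Nlrp14, in contrast, that embryo was the highest of the 5, at 294 RPM beside 218, 179, 169 and 162 RPM.

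Between HOM and WT embryos, 0 of 10 members were called by limma, against 0.0183% of all genes (3 of 16412, with 2379 under an unadjusted p of 0.05). Here 4 differences were positive and 6 negative, with a median of -0.09 beside 0.09 for all genes. Nlrp4c, one of the scarce members, had the greatest difference at 0.98 (SE 0.47, adjusted p = 0.34), with a range of 2.39 to 25.6 RPM (median 15.0) in HOM and of 0 to 28.5 RPM (median 4.53) in WT embryos. Nlrp9c had the lowest, at -0.64 (SE 0.36, adjusted p = 0.41), with a range of 52.4 to 486 RPM (median 292) in HOM and of 92.2 to 704 RPM (median 296) in WT. For Nlrp9c, 9 of the 10 HOM embryos lay within the WT range and 1 lay below it.

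HET2 and HOM embryos share their litters, so this pair compares embryos with and without a functional paternal allele within litters. In mating 2 the comparison rests on 1 HET2 embryo beside 7 HOM embryos. With litter as a term, 0 of 10 members were called by limma, against 0.0122% of all genes (2 of 16412, with 715 under an unadjusted p of 0.05). The differences ran from -1.04 (SE 0.67, adjusted p = 0.90) for Nlrp9a to 0.61 (SE 0.78, adjusted p = 0.96) for Nlrp4c. For Nlrp14, the most precisely measured member here, the 95% interval of the difference ran from -0.73 to 0.73, and for Nlrp9a from -2.48 to 0.40, so that differences of severalfold in Nlrp9a could not be told from 0 in these 15 embryos.

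**Figure D2:**
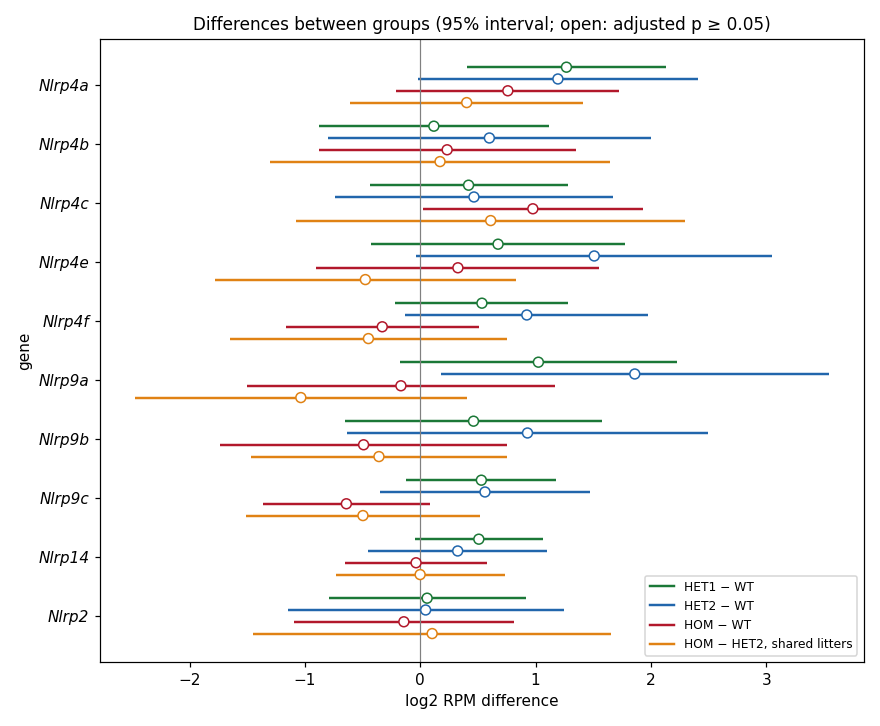
Log2 RPM differences of the 10 Nlrp members (horizontal axis) for HET1, HET2 and HOM against WT embryos and for HOM against HET2 embryos within shared litters, with 95% intervals as lines. All symbols are open because no difference had an adjusted p under 0.05, and the HET1 and HET2 differences from WT lie to the right of 0 for all 10 genes. The comparisons with WT share the 14 WT embryos.

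The spread between litters was described next. The litter accounted for a median of 45.6% of the variance of the 10 members over 44 embryos, against 19.4% for all genes tested and 30.0% for the more abundant genes, those averaging at least 5 on the log2 RPM scale. The group accounted for a median of 9.98% for the members, 8.74% for all genes tested and 12.9% for genes with a mean of at least 5. The litter share was 56.5% for Nlrp9c, 53.5% for Nlrp4e, 52.4% for Nlrp4a, 52.2% for Nlrp4f and 48.7% for Nlrp9a. It was 10.0% for Nlrp2, 11.9% for Nlrp4b and 15.0% for Nlrp4c, and 2 of these were the members with the fewest reads. The summed level of the family had medians of 710 and 1148 RPM in the WT litters, 647 and 1808 RPM in the HET1 litters and 1366 and 548 RPM in the litters of the cross with heterozygous males, mating 1 before mating 2 in each.

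**Figure D3:**
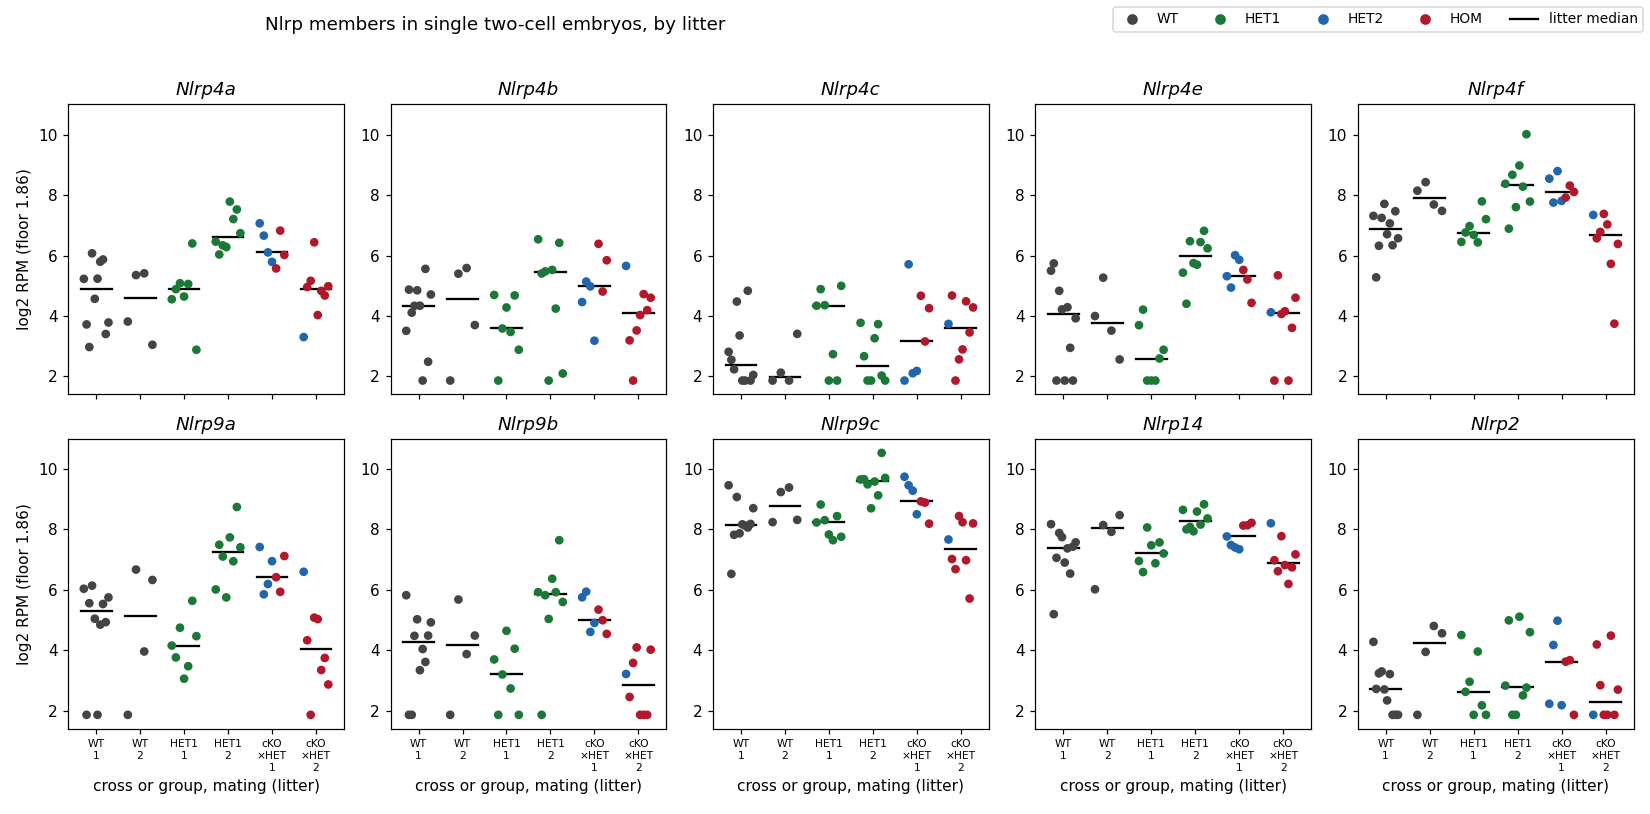
Level of each Nlrp member in log2 RPM, floored at 1.86 (vertical axis), in the 44 single embryos (points, coloured by group), with the 6 litters along the horizontal axis and the litter median as a bar. For Nlrp4a, Nlrp4e, Nlrp4f, Nlrp9a, Nlrp9b, Nlrp9c and Nlrp14 the median of HET1 mating 2 lies above that of mating 1, and the median of mating 1 of the cKO × HET cross above that of mating 2, while Nlrp4c has the opposite order in both.

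Within HET1, whose 2 litters share both parental genotypes, 7 of 10 members were higher in mating 2 than in mating 1 by limma, against 3.84% of all genes tested (630 of 16412). The other 3, Nlrp2, Nlrp4b and Nlrp4c, were not called, with differences of 0.47 (SE 0.63, adjusted p = 0.67), 1.06 (SE 0.76, adjusted p = 0.43) and -0.95 (SE 0.58, adjusted p = 0.35). The median difference of the members was 1.42 beside -0.06 for all genes, and beside -0.26 for genes with a mean of at least 5. When only genes with a mean of at least 3 were tested, 7 members were called higher. In that fit 34.1% of the genes (2578 of 7570) were called in either direction.

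Among the Nlrp4 genes, Nlrp4e had the widest gap. It ranged from 0.706 to 18.5 RPM (median 6.03) in mating 1 and from 21.2 to 113 RPM (median 64.6) in mating 2, and the litters did not overlap. The values of mating 1 rest on a median of 3 reads. The log2 difference was 3.20 (SE 0.44, adjusted p = 0.00051), or 9.17-fold. Nlrp4e is one of the members described as needed in the early embryo, and its share of the family's reads had a median of 0.638% in mating 1 and 3.49% in mating 2. Nlrp4a ranged from 7.36 to 84.4 RPM (median 29.6) in mating 1 and from 65.6 to 221 RPM (median 97.4) in mating 2, a difference of 2.01 (SE 0.43, adjusted p = 0.0079). A single embryo of mating 1 reached into the range of mating 2. Nlrp4f ranged from 86.5 to 221 RPM (median 108) and from 118 to 1034 RPM (median 321), a difference of 1.42 (SE 0.38, adjusted p = 0.027). The Nlrp4f call was lost when HET1 replicate 1, 2, 4, 5 or 14 was left out, with adjusted p-values up to 0.058.

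Among the Nlrp9 genes, all 3 were higher in mating 2. Nlrp9a ranged from 8.32 to 49.7 RPM (median 17.8) in mating 1 and from 53.7 to 428 RPM (median 153) in mating 2, with no overlap, and differed by 2.96 (SE 0.46, adjusted p = 0.0011), or 7.79-fold. Nlrp9c ranged from 200 to 452 RPM (median 300.2) and from 415 to 1479 RPM (median 785), a difference of 1.41 (SE 0.24, adjusted p = 0.0024), and the ranges overlapped at their ends. Nlrp9b ranged from 0 to 25.0 RPM (median 9.17) and from 2.12 to 199.6 RPM (median 58.6), a difference of 2.37 (SE 0.71, adjusted p = 0.043). A single embryo of mating 2 lay among those of mating 1. The Nlrp9b call held when HET1 replicate 4, 6 or 11 was left out and was lost, with adjusted p-values up to 0.086, without any other single embryo.

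Nlrp14, whose protein is needed by the egg for early development, ranged from 96.1 to 267 RPM (median 147) in mating 1 and from 245 to 455 RPM (median 307) in mating 2, a difference of 1.08 (SE 0.21, adjusted p = 0.0051). Nlrp9c held a median of 38.7% of the family's reads in mating 1 and 39.2% in mating 2, while its level was 2.66-fold higher in mating 2.

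In the cross of cKO females with heterozygous males the litters differed in the opposite sense of their numbers. With genotype as a term, all 10 differences of mating 2 from mating 1 were negative, with a median of -1.41 beside 0.00 for all genes. Of these, 1 was called lower by limma, against 1.98% of all genes (325 of 16412). This was Nlrp9b, an inflammasome component in the gut, which ranged from 23.3 to 61.3 RPM (median 31.8) in mating 1 and from 0 to 17.1 RPM (median 7.38) in mating 2, without overlap. The difference was -2.13 (SE 0.48, adjusted p = 0.032), and the call was lost without HET2 replicate 1 or 5 or HOM replicate 1, 2, 3 or 10, with adjusted p-values up to 0.11. It was also lost on the log2(RPM + 1) scale (adjusted p = 0.063).

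Nlrp4f also did not overlap between these litters. It ranged from 216 to 444 RPM (median 275) in mating 1 and from 13.4 to 166 RPM (median 102) in mating 2, with a difference of -1.61 (SE 0.53, adjusted p = 0.12). Non-overlap held for 2 of 10 members in this cross, against 1.97% of all genes tested, and for 2 of 10 members in HET1, against 2.99%. Nlrp9a differed by -1.98 (SE 0.63, adjusted p = 0.11), Nlrp4a by -1.67 (SE 0.44, adjusted p = 0.058), Nlrp4e by -1.41 (SE 0.57, adjusted p = 0.21), Nlrp9c by -1.41 (SE 0.44, adjusted p = 0.10) and Nlrp14 by -0.72 (SE 0.32, adjusted p = 0.25). The difference was -1.07 (SE 0.65, adjusted p = 0.39) for Nlrp4b, -0.58 (SE 0.68, adjusted p = 0.74) for Nlrp2 and -0.20 (SE 0.74, adjusted p = 0.96) for Nlrp4c.

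The count in this cross depended on the processing. Median centring, the deposited values without the common floor, and a filter at a mean of at least 3 each gave 5 lower members, namely Nlrp4a, Nlrp4f, Nlrp9a, Nlrp9b and Nlrp9c, and 0 were higher under any alternative. The share of all genes called in either direction rose as well, from 3.41% with the settings used above to 5.03%, 5.91% and 14.3% under these settings in the same order.

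Between the 2 WT litters, 0 of 10 members were called by limma, against 0.158% of all genes (26 of 16412, with 1805 under an unadjusted p of 0.05). Nlrp4f came closest, with 38.8 to 209 RPM (median 119) in mating 1 and a range of 178 to 344 RPM (median 245) over the 4 embryos of mating 2, a difference of 1.13 (SE 0.38, adjusted p = 0.28). The intervals were wide, from -2.25 to 2.14 for Nlrp9a and from -1.64 to 1.90 for Nlrp4e. The litter differences in the 3 crosses were not tested against one another.

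**Figure D4:**
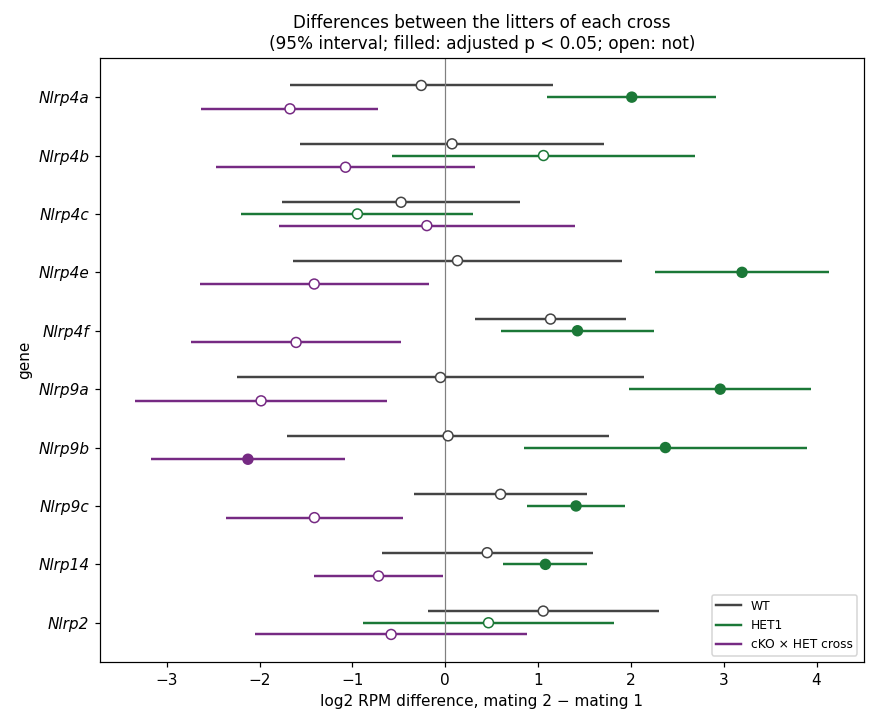
Log2 RPM difference of mating 2 from mating 1 (horizontal axis) for the 10 Nlrp members in WT embryos, HET1 embryos and the cKO × HET cross, with 95% intervals as lines and filled symbols at an adjusted p under 0.05. In HET1, 7 members are filled on the right of 0, and in the cKO × HET cross all 10 lie on the left, with Nlrp9b filled.

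Other measures moved with the litters. The 7 two-cell markers summed to a median of 97.1 RPM (range 55.4 to 312) in HET1 mating 1 and 588 RPM (219 to 962) in mating 2, and to 355 RPM (219 to 604) and 81.6 RPM (9.74 to 187) in the litters of the cross with heterozygous males. The 5 oocyte markers summed to medians of 501 and 1208 RPM and of 1263 and 508 RPM in the same order. Both sums were higher in the litters with the higher summed Nlrp level. Bmp15 made up most of the oocyte sum, and Zp3, a marker of the same list, had the opposite order, with medians of 76.8 and 39.5 RPM in the HET1 litters and 25.8 and 67.2 RPM in the litters of the other cross. Of the 10 cumulus and granulosa markers, 9 had a median of 0 reads in each of these 4 litters, and the sum, nearly all Amhr2, had medians of 41.6, 14.7, 22.9 and 68.8 RPM. The sperm markers had at most 0.706 RPM in any embryo. Median depth was 663861 and 524828 reads in the HET1 litters, lower in the litter with the higher summed Nlrp level, and 1108889 and 747523 reads in the litters of the other cross, higher in the litter with the higher level. With the mean of each group in each litter removed, the family mean correlated with the log of total reads at 0.51 over the 44 embryos. Dppa2 had a median of 96 reads in HET1 mating 1 and 25.5 in mating 2. The part of these measures in the Nlrp differences was not tested.

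Related genes were looked at by list. Of 19 other NOD-like receptor genes listed, 17 were in the table and 9 could be tested. Between the HET1 litters 1 was lower, against 8.9% of all genes, and 0 were higher. The lower one was Nlrp12 at -1.55 (SE 0.42, adjusted p = 0.028). Nlrp5, another oocyte NLRP gene and a subunit of the subcortical maternal complex that the egg needs for cleavage, differed by 0.00 (SE 0.44, adjusted p = 1.0) between the HET1 litters and by -1.05 (SE 0.35, adjusted p = 0.12) between the litters of the cross with heterozygous males. In the cross with heterozygous males, Nlrc3 was the 1 gene of this list called, higher in mating 2, against 1.43% of all genes, by 1.88 (SE 0.47, adjusted p = 0.048). The list had 0 calls in the comparisons of groups, where 0.0122% to 4.54% of all genes were called.

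For the subcortical maternal complex (Nlrp5, Ooep, Tle6, Khdc3, Padi6 and Zbed3), 0 of 6 genes were called between the litters of any cross, where 0.158% of all genes were called in WT, 3.84% higher and 8.9% lower in HET1, and 1.43% higher and 1.98% lower in the cross with heterozygous males. In that cross all 6 differences were negative, with a median of -0.85 beside 0.00 for all genes. In HET1, 2 of 6 were positive, Ooep at 1.51 (SE 0.56, adjusted p = 0.10) and Zbed3 at 1.47 (SE 0.48, adjusted p = 0.059). Between HET1 and WT embryos 2 of 6 were higher, against 2.49% of all genes, namely Ooep (1.20, SE 0.37, adjusted p = 0.049) and Tle6 (1.34, SE 0.40, adjusted p = 0.043), named after their values were seen. With litter as a random effect, 0 of 16412 genes were called in this comparison, so neither call held. With only HET1 mating 1 kept, 0 of 6 were called, against 0.0366% of all genes, with Ooep at 0.39 (adjusted p = 0.62) and Tle6 at 1.46 (adjusted p = 0.13). With only mating 2 kept, 2 of 6 were called higher, against 7.10% of all genes, Ooep at 1.90 (adjusted p = 0.0014) and Zbed3 at 1.95 (adjusted p = 0.0038), and Tle6 was not (1.22, adjusted p = 0.11). By RPM, which was not scaled to gene length here, Zbed3 was the highest of the 6, with a median of 1592 RPM in WT embryos. Of 9 partners of NLRP proteins in the inflammasome, among them Casp1 and Pycard, 8 had a median of 0 reads in WT embryos. Nek7 had reads in all 14 WT embryos, with a median of 15.3 RPM. Of the list, 4 genes could be tested and 0 were called in any comparison, where the shares of all genes called in either direction ran from 0.0122% (HOM against HET2) over 3.41% (litters of the cKO × HET cross) to 12.7% (HET1 litters), so a count of 0 among 4 does not set the list apart.

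Of 16 oocyte transcripts outside the family, 4 were higher in HET1 mating 2 than in mating 1, against 3.84% of all genes, namely Btg4, Bcl2l10, Oosp1 and H1foo, and 4 were lower in mating 2 of the cross with heterozygous males, against 1.98% of all genes, namely Btg4, Bcl2l10, Oosp1 and Bmp15. Btg4, an adaptor of the deadenylase that removes maternal messages, differed by 2.52 (SE 0.38, adjusted p = 0.0010) and -2.55 (SE 0.33, adjusted p = 0.0033). Its median was 269 RPM in HET1 mating 1 and 1877 RPM in mating 2, and 1062 and 247 RPM in the litters of the other cross. Zp3, of the zona pellucida, differed by -1.003 (SE 0.43, adjusted p = 0.16) and 0.62 (SE 0.46, adjusted p = 0.50), opposite in sign to Btg4 in both crosses. Between HET1 and WT embryos 4 of the 16 were higher, against 2.49% of all genes, namely H1foo, Bcl2l10, Btg4 and Oas1d. None of these 4 calls held with litter as a random effect or with litter means as replicates, where 0 of 16412 genes were called. With only HET1 mating 1 kept, 0 of the 16 were called, against 0.0366% of all genes, with Btg4 at 0.23 (adjusted p = 0.88), Bcl2l10 at 0.29 (adjusted p = 0.83), Oas1d at 0.98 (adjusted p = 0.28) and H1foo at 1.396 (adjusted p = 0.27). With only mating 2 kept, 8 of the 16 were called higher, against 7.10% of all genes.

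The members varied together to different degrees over the 44 embryos, which share litters, depth and processing. The correlation of a member with the mean of the other 9 was 0.79 for Nlrp9c, 0.76 for Nlrp9b, 0.75 for Nlrp14, 0.75 for Nlrp9a, 0.71 for Nlrp4f, 0.67 for Nlrp4a, 0.56 for Nlrp4e, 0.41 for Nlrp4b, 0.22 for Nlrp2 and -0.075 for Nlrp4c. Within litters it was 0.65 for Nlrp9c and 0.63 for Nlrp14 but 0.12 for Nlrp4e. For all values within litters, the mean of each group in each litter was removed, so HET2 and HOM littermates were centred separately. The closest pairs were Nlrp4f with Nlrp9c (0.80, and 0.62 within litters) and Nlrp9a with Nlrp14 (0.79, and 0.69 within litters). Nlrp9a and Nlrp9c, with the near-identical promoter stretch shown above, correlated at 0.70. Nlrp4a, Nlrp4b and Nlrp4c, which share CCAATCACATG, correlated at 0.27 (Nlrp4a with Nlrp4b), 0.21 (Nlrp4b with Nlrp4c) and -0.07 (Nlrp4a with Nlrp4c). Nlrp4c and Nlrp4e, the pair with the most similar coding sequence, correlated at -0.15. The mean of the family correlated with the log of total reads at 0.16 over all embryos, without removing any means. With the mean of each group in each litter removed, this correlation was 0.51.

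**Figure D5:**
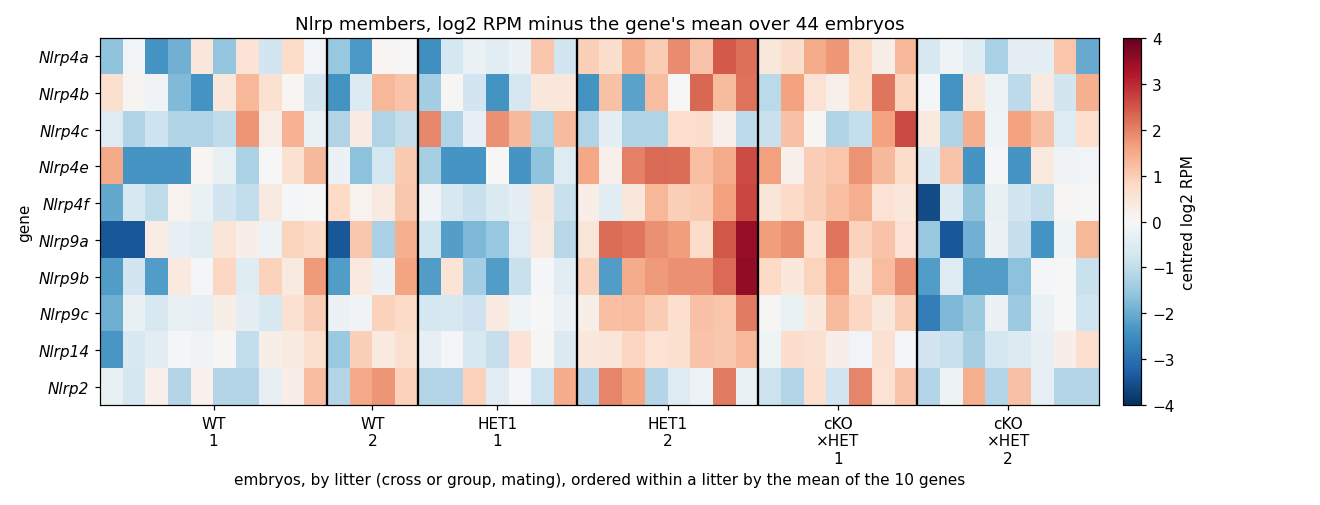
Level of the 10 Nlrp members (rows) in 44 embryos (columns, by litter and within it by the mean of the 10 genes), as log2 RPM minus the gene's mean over all embryos. HET1 mating 2 and mating 1 of the cKO × HET cross are mostly above the mean (red) for Nlrp4a, Nlrp4e, Nlrp4f, Nlrp9a, Nlrp9b, Nlrp9c and Nlrp14, while Nlrp4c shows no such blocks.

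Among 3740 other genes that averaged at least 5 on the log2 scale, the 5 most like the family mean over the 44 embryos were Tiparp (r = 0.89), Gm13103 (0.87), Cul1 (0.87), Oosp3 (0.87) and Ppip5k2 (0.86). The median correlation of all 3740 genes was -0.07 and the 99th percentile 0.78. Tiparp encodes an ADP-ribosyltransferase, Cul1 the scaffold of SCF ubiquitin ligases and Oosp3 an oocyte-secreted protein. Oosp3 ranged from 41.6 to 235 RPM (median 61.5) in HET1 mating 1 and from 973 to 4896 RPM (median 1349) in mating 2, which did not overlap. The 3 genes least like the family were Snupn (r = -0.92), which encodes an snRNP import adaptor, Rnf7 (-0.88), which encodes a RING subunit of cullin ligases, and Psmb4 (-0.85), which encodes a proteasome subunit. Snupn ranged from 172 to 308 RPM (median 265) in HET1 mating 1 and from 22.4 to 110 RPM (median 78.9) in mating 2. Within litters the correlation remained 0.78 for Tiparp and -0.84 for Snupn.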

How the data were processed

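Single two-cell embryos were processed by Smart-seq2 with oligo-dT priming and sequenced as 75-base paired ends. Per the submitters' processing notes, reads were trimmed with Trim Galore 0.6.5 (cutadapt 2.3) and aligned to GRCm38 with HISAT2 2.1.0. The authors counted reads with a mapping quality of at least 20 in SeqMonk without regard to strand and deposited log2 RPM per gene for 44 embryos. In the deposited log2 values a gene without reads stands at 0.9 read. Whole reads were recovered for 99.9992% of values within 0.05 read.

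Values were floored at 1.86, the value of a gene without reads in the shallowest embryo, and 16412 genes with a mean deposited log2 RPM of at least 0 were fitted with limma 3.58.1 (trend; R 4.3.3) and Benjamini-Hochberg adjustment at 0.05. Groups were fitted in 1 model. HOM and HET2 embryos were compared with litter as a term, and litters were compared within each cross. Nothing used here says how embryos of a litter were sampled beyond the litter, so p-values measure the spread between these embryos. Depth was 247667 to 3163026 reads per embryo, and floors cover counting error only. Sequence uniqueness was computed against annotated GENCODE transcripts, not the genome, with Biopython 1.88. Promoters are from RefSeq.

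The text names all 10 members, the 5 genes most and the 3 least correlated with the family mean, and up to 4 genes of each list by mean level. Other genes were named after their values were seen. Members and lists were chosen with earlier results of these data known. Alternatives covered the floor, the genes tested, scaling, pseudocounts, weights, litter handling, and left-out litters or HET2 embryos. The voom fit on recovered reads, leaving out each embryo of a cross, and leaving out each HET1 litter for the listed genes were chosen after seeing the data. The code was tested on simulated data.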

Additional observations from a re-analysis of the deposited data

Results flagged for a closer look

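Of 60 sets of values, 2 held an embryo far from the others, where chance gives about 3 at 1 in 20. The sets were 10 members in 6 sets of embryos, namely HET2, HOM and each litter of WT and of HET1. HET2 and HOM embryos were not split by litter here. Nlrp4c in WT mating 2 had its highest value in WT replicate 14, at 3.41 on the log2 scale (10.6 RPM), with the nearest other embryo at 2.12. Nlrp9b in HET1 mating 2 had its lowest value in HET1 replicate 11, at 1.86 on the log2 scale (2.12 RPM), with the nearest other embryo at 5.04. Without HET1 replicate 11, 7 of 10 members were called between the HET1 litters, against 11.7% of all genes in the same fit.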

How the results depend on the processing

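Counts of called members were 0 under every alternative run for HET2 and HOM against WT, HOM against HET2, and the WT litters, where at most 1.52% of all genes were called. Beside each count below stands the share of all genes called in either direction under the same setting. HET1 against WT gave 0 members (4.54%), 1 without the common floor (24.7%) or with a mean of at least 3 (14.2%), and 0 to 5 with 1 litter left out (0.0366% to 14.3%). With litter as a random effect or litter means as replicates it gave 0 (0%). The HET1 litters gave 7 members (12.7%), 7 with a mean of at least 3 (34.1%), 6 with all genes that had a read (7.03%), and 5 to 7 with 1 embryo left out (9.3% to 13.4%). Litters of the cKO × HET cross gave 1 member (3.41%), 5 without the floor (5.91%), with a mean of at least 3 (14.3%) or with median centring (5.03%), 3 with array weights (6.15%) or voom (6.29%), 2 with quantile normalization (4.68%) or log2(RPM + 4) (4.8%), and 0 to 2 with 1 embryo left out (0.908% to 4.38%). The count was 0 without HET2 replicate 1 or HOM replicate 2, 3 or 10, and 2 without HOM replicate 5 or 8. Why these counts moved was not tested. Of 1470 single-member differences recomputed, 0 changed sign where a call was made under either setting, 105 changed sign with no call under either, 30 gained and 25 lost a call.

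Mating numbers did not pair the samples. The litter differences correlated at 0.45 (WT and HET1), -0.47 (WT and cKO × HET) and -0.79 (HET1 and cKO × HET) over 3745 genes. With the mating number as a replicate block, 0 members were called against WT, and 0 were called for HOM against HET2 without the litter term. Depth limits the scarce members most, since Nlrp2 and Nlrp4c had medians of 9 and 7 reads.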
